A study of Mus musculus with 6 samples.

Results

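The genes described here are those of Rab and Arf GTPases, SNARE proteins, sorting nexins, vesicle coats, tethers and membrane-scission complexes, which move membrane and cargo between the compartments of a cell. They were chosen by gene symbol from the annotation of the array. The symbols took in 177 genes on 255 probes, out of 10698 named genes on an array table of 16281 probes. Total RNA came from RAW 264.7 cells, a mouse macrophage line derived from a virus-induced tumour, and every array carried RNA of treated and of untreated cells in different dyes. Treated cells had received lipopolysaccharide (LPS) at 100 ng/ml together with LPS-binding protein at 100 pM, and both kinds of cell were cultured for 4 h. Treated RNA was in Cy5 on 3 arrays and in Cy3 on 3, numbered as sets 1 to 3 in each orientation. One protocol text gives the line as RAW 264.4. A single tumour-derived line is a limited model of tissue macrophages. The labels do not describe the sets as separate cultures, so the p-values reflect only how far these samples differed from each other, possibly for technical reasons.

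Rab and Arf GTPases act as switches that recruit motors, tethers and coats to a membrane when they bind GTP. Coats (clathrin with its adaptors, COPI and COPII) pinch off vesicles, tethers such as the exocyst catch them, and SNARE proteins on vesicle and target membrane zip together to fuse them. In macrophages this machinery delivers cytokines to the surface, carries ingested particles through the maturing phagosome to the lysosome, and takes LPS receptors from the surface to endosomes.

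Each value below is a log2 ratio, treated RNA over untreated, with its SD over n = 3 sets. A set value averages the 2 arrays of that number, after the sign of the Cy3-treated array was turned. The deposited ratio was taken to have Cy5 on top, since the labels call Cy5 the test channel, and the opposite convention would turn every sign. A value of exactly 0 was taken as not measured. Of the 177 genes, 166 had at least 1 probe measured on all 6 arrays and were tested. Stx2 was measured on no array and 10 genes on some, of which the 8 measured in 2 sets lay between -0.077 and 0.12 and did not pass the test. The table gives ratios without intensities, so macrophage identity could not be checked by level. Of 7 listed macrophage marker symbols, 5 were tested, of which 3 rose and 1 fell, while 0 of 10 tested T cell, B cell and fibroblast markers were called (log2 between -0.00038 and 0.12).

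Most genes of vesicle traffic changed little, and a few changed clearly in each direction. Stx11, a syntaxin of immune cells, rose 2.15-fold, the sorting nexin gene Snx20 1.83-fold, the endosomal syntaxin gene Stx6 1.53-fold, Rab32 1.5-fold and Snx10 1.44-fold. The largest falls were those of Snx24, 1.46-fold, and Snx21, 1.35-fold. Called means an adjusted p below 0.05 in limma's moderated test across all 11364 features, with Benjamini-Hochberg adjustment. Of the 166 genes tested 48 were called, 28.9%, against 29.0% of all features, so the share called was that of the array as a whole. Higher calls, by the mean over a gene's probes, numbered 30 (18.1%, against 14.0% of all features) and lower calls 18 (10.8%, against 15%). The median log2 ratio was 0.026 over these genes and 0.00079 over all features, and the median absolute ratio 0.079 and 0.083.

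Large changes were few. Stx11 alone was called and changed at least 2-fold, 0.602% of the genes tested against 2.03% of all features. Stx11 and Snx20 passed limma's test against a 1.5-fold change, 1.2% against 2.6% of all features. With the same sign on all 6 arrays, 24 genes were called higher (14.5%, against 10.7% of all features) and 16 lower (9.64%, against 11.5%). The limma test of the dye effect, on the difference between the orientations of each set, called 0 of the 166 genes (0.0% of all features), although 31 of them, 18.7%, had an unadjusted p below 0.05 against 23.1% of all features.

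**Figure D1:**
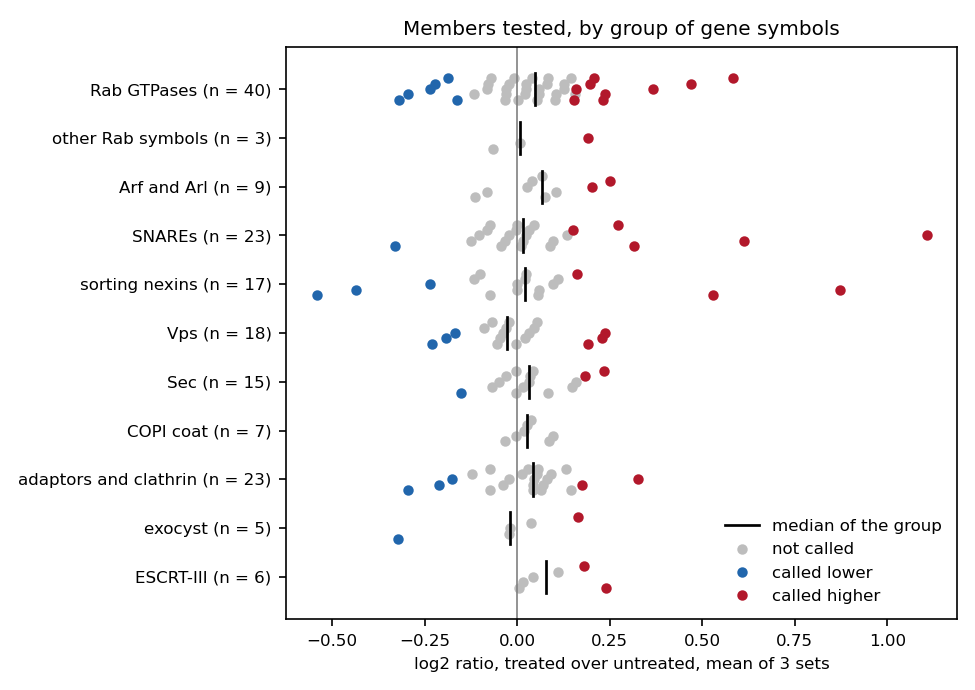
Log2 ratio of treated over untreated RNA, mean of 3 sets, for the 166 genes tested, by group of gene symbols. Each point is 1 gene, red where called higher, blue where called lower and grey where not called, and the black bar is the group's median. Stx11 at 1.11 and Snx20 at 0.87 lie farthest to the right and Snx24 at -0.54 farthest to the left, while the 7 COPI coat genes stay between -0.034 and 0.097.

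SNARE genes held the largest rise. Of 23 tested, counted by gene symbol, 5 rose, 1 fell and 17 were not called, with a median of 0.016. Called genes made up 26.1%, against 29.0% of all features. All 5 that rose were syntaxins, which sit mainly on target membranes, out of 12 tested (41.7%, against 14.0% of all features called higher). The split of this group into syntaxin, Vamp and Snap genes was chosen after the values were seen. Of the 7 Vamp genes, whose proteins ride on vesicles, 1 fell and 0 rose. None of the 4 genes with a Snap symbol was called, and 1 of them, Snap91, encodes a clathrin assembly protein and no SNARE.

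Stx11 encodes a syntaxin of immune cells that is needed for the release of cytotoxic granules and is mutated in a familial form of haemophagocytic lymphohistiocytosis. Its log2 ratio on the arrays with treated RNA in Cy5 was 1.01, 1.03 and 1.22 in sets 1 to 3, and on those with treated RNA in Cy3 it was 1.08, 1.10 and 1.20. The 6 arrays lay close together, with set 3 highest in both orientations. The mean was 1.11 ± 0.088 (95% confidence interval 0.99 to 1.22, limma adjusted p = 4.34e-06), the 174th largest rise among the 9574 named genes tested.

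Stx6 encodes a syntaxin of the trans-Golgi network and endosomes that takes part in the export of tumour necrosis factor from macrophages. It read 0.73, 0.29 and 0.59 with treated RNA in Cy5 and 0.73, 0.82 and 0.51 with it in Cy3. All arrays were above 0, with the Cy5 array of set 2 the lowest. Its rise was 0.61 ± 0.105 (limma adjusted p = 1.18e-04).

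Smaller rises were seen in 3 other syntaxin genes. Stx3, for fusion at the plasma membrane, rose by 0.31 ± 0.090 (adjusted p = 0.00258) and ranged over the arrays from 0.13 to 0.42. Stx12, a syntaxin of recycling endosomes, rose by 0.27 ± 0.040 (adjusted p = 0.00258), with the Cy5 arrays between 0.14 and 0.24 and the Cy3 arrays between 0.31 and 0.36. Stx18, a syntaxin of the endoplasmic reticulum, was called at 0.15 ± 0.034 (adjusted p = 0.0338), but not without set 1 (0.14, adjusted p = 0.165), set 2 (0.14, 0.141) or set 3 (0.17, 0.0503).

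Vamp4, a vesicle SNARE of the trans-Golgi network, was the one SNARE gene that fell. Its 6 values were tight: -0.36, -0.37 and -0.29 with treated RNA in Cy5 and -0.38, -0.35 and -0.24 with it in Cy3. The mean was -0.33 ± 0.058, a 1.26-fold fall (limma adjusted p = 0.0012).

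Other SNARE genes known from secretion and phagosome fusion were not called. Stx4a, the plasma membrane syntaxin, was at 0.087 ± 0.022 (95% interval -0.011 to 0.18, adjusted p = 0.174), with Cy5 arrays between 0.19 and 0.31 and Cy3 arrays between -0.09 and -0.05, so the orientations did not overlap. Snap23, which pairs with plasma membrane syntaxins, was at 0.00033 ± 0.017 (adjusted p = 0.997), again with orientations of opposite sign. The recycling endosome SNARE gene Vamp3 was at -0.082 ± 0.074 (adjusted p = 0.253), and the late endosomal genes Vamp8 at 0.13 ± 0.073 (0.0719) and Stx7 at 0.045 ± 0.022 (0.49). The neuronal syntaxin gene Stx1a was at -0.13 ± 0.12 (adjusted p = 0.135). Of the 17 genes not called, the lowest was Stx1a and the highest Vamp8.

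Sorting nexins bind phosphoinositides on endosomes through a PX domain and sort cargo there. Of 17 tested, 3 rose, 3 fell and 11 were not called, with a median of 0.021. Calls made up 35.3%, against 29.0% of all features. Their range, from -0.54 to 0.87, was wide next to those of the coat genes.

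Snx20 encodes a nexin that binds the leukocyte adhesion ligand PSGL-1 and carries it to endosomes. It read 0.92, 0.74 and 0.83 with treated RNA in Cy5 and 0.92, 0.98 and 0.84 with it in Cy3, all far above 0 and with overlapping orientations. The mean was 0.87 ± 0.045 (95% interval 0.77 to 0.97, limma adjusted p = 7.94e-06). Snx10, a nexin needed for bone resorption by osteoclasts, read 0.53, 0.52 and 0.38 in Cy5 and 0.58, 0.67 and 0.50 in Cy3. It rose by 0.53 ± 0.080 (adjusted p = 1.60e-04). Snx31 was called at 0.16 ± 0.073 (adjusted p = 0.0368), yet its Cy5 arrays lay between -0.17 and 0.05 and its Cy3 arrays between 0.26 and 0.44. On the Cy5 arrays alone Snx31 was at -0.042 and not called. The Snx31 call ended without set 1 (0.19, adjusted p = 0.0612), set 2 (0.12, 0.235) or set 3 (0.18, 0.0726).

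Snx24, a small nexin of little more than a PX domain, had the largest fall of all genes described here. It read -0.62, -0.76 and -0.56 with treated RNA in Cy5 and -0.49, -0.34 and -0.48 with it in Cy3. Every array was below 0, and the Cy3 values were nearer to 0 than the Cy5 values. The mean was -0.54 ± 0.016 (limma adjusted p = 7.01e-05). Snx21 read -0.55, -0.23 and -0.53 in Cy5 and -0.67, -0.28 and -0.35 in Cy3, set 2 being the nearest to 0 in both orientations. It fell by 0.44 on the log2 scale with an SD of 0.17 (adjusted p = 0.00236). With exact zeros kept as values Snx21 was not called (adjusted p = 0.073). Snx27, which works with retromer to return receptors to the surface, fell, at -0.23 ± 0.024 (adjusted p = 0.00464). Snx2, a retromer partner, was at 0.11 ± 0.036 (adjusted p = 0.102), and Snx7 at -0.12 ± 0.037 (0.0804).

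Promoter sequence is shown for 4 of these genes: Stx11, the largest SNARE rise, Snx21 and Vamp4, the largest falls after Snx24, and Snx10. Snx10 was the one strong rise in which listed motifs were found. No sequence is shown for Snx24, the largest fall. The bases are the 250 before a gene's start in RefSeq (mouse GRCm38.p6), 5′ to 3′ on the gene's strand, and capitals mark a match to a listed motif on either strand. The motifs were the κB consensus of NF-κB, GAAANNGAAA of interferon response elements and TGANTCA of AP-1 sites. The κB consensus was chosen after looser letters were seen to match many promoters. Counted from the start, the match shown lies at -26 to -17 in Snx10 (reverse strand), -124 to -115 in Vamp4 and -13 to -4 in Snx21, and none overlaps another. Start 2 of Snx10, whose sequence is not shown, holds an AP-1 match at -98 to -92, and its start 1 holds no match.
Stx11, chr10:12964260-12964509, minus strand, no match: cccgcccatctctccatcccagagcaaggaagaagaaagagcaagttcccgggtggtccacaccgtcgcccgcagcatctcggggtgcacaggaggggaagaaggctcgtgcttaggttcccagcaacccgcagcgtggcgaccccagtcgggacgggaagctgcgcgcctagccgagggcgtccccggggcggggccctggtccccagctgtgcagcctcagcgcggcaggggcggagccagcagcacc
Snx10, chr6:51524010-51524259, plus strand, start 3 of 3 listed, interferon response match in capitals: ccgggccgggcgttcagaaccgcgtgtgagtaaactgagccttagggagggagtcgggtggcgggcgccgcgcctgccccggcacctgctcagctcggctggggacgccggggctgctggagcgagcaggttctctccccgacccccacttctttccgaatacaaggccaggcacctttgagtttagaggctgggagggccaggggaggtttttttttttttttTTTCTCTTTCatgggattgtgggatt
Vamp4, chr1:162570265-162570514, plus strand, start 1 of 2 listed, κB match in capitals: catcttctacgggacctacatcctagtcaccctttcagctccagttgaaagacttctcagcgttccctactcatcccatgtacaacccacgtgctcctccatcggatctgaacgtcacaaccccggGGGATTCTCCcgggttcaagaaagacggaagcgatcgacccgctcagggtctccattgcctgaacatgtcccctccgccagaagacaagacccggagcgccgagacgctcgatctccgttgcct
Snx21, chr2:164785771-164786020, plus strand, κB match in capitals: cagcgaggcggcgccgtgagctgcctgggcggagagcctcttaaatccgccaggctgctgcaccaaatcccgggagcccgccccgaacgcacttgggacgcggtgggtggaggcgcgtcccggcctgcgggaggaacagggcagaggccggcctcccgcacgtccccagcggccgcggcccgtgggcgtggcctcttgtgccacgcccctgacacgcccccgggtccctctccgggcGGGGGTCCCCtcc

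Promoters were listed for 139 of the 177 genes, among them 25 of the 30 called higher and 14 of the 18 called lower, and 7598 of the named genes tested. The κB consensus was found in 0 of the 25 higher and 5 of the 14 lower genes (Vamp4, Snx21, Exoc3l2, Ap4m1 and Rab28), against 3 of 92 genes not called (3.26%), 10.2% of the named genes tested and 8.23% of all 27025 genes in the table. With the looser letters GGGNNNNNCC the shares were 64.0% and 64.3%, against 61.3% of the named genes tested and 48.7% of all. The interferon response letters stood in 2 of the 25 higher genes, Snx10 and Sec14l1, or 8.0%, in 7 of the 92 not called, or 7.61%, and in 0 of the lower, against 3.44% of the named genes tested (3.46% of all). Those same genes, Snx10 and Sec14l1, held the AP-1 letters, found in 4 of the 92 not called (4.35%), in 0 of the lower genes and in 7.38% of the named genes tested (7.82% of all). A gene with several listed starts was counted as holding a motif if any of them did. These are matches of letters within a short window and say nothing of binding.

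**Figure D2:**
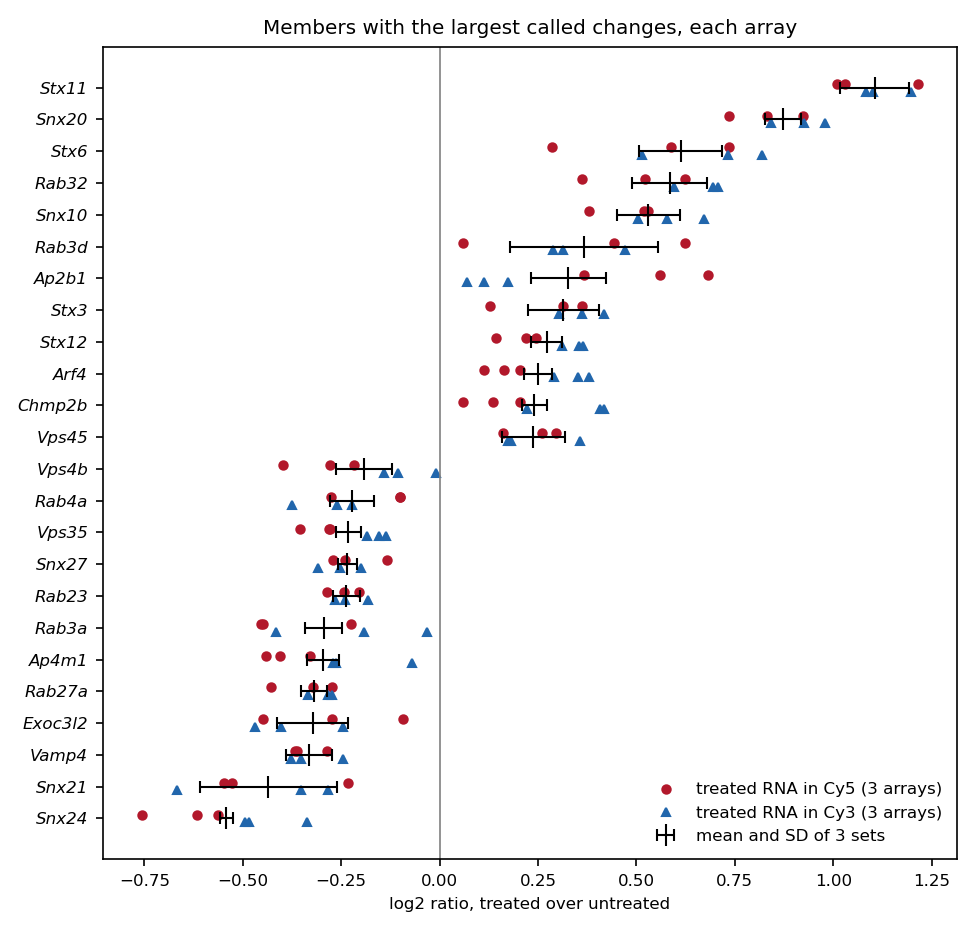
Log2 ratio, treated over untreated, on each of the 6 arrays for the genes that rose or fell most among those called with the same sign on all arrays, 12 in each direction. Red circles are arrays with treated RNA in Cy5, blue triangles those with it in Cy3, and black bars the mean and SD of 3 sets. Stx11 and Snx20 stand apart on every array, and for Ap2b1 the Cy5 arrays (0.37 to 0.68) lie wholly above the Cy3 arrays (0.07 to 0.17).

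Rab GTPases moved in both directions. Of 40 tested, 9 were called higher, 6 fell and 25 were not called, with a median of 0.047. The share called was 37.5%, against 29.0% of all features (14.0% higher and 15% lower). The 9 include Rab3d, whose probes were called in opposite directions and for which no direction can be given. The 25 not called lay between -0.12 and 0.16.

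Rab32, a GTPase of mitochondria and lysosome-related organelles with a part in defence against intracellular bacteria, had the largest rise. It read 0.52, 0.62 and 0.36 with treated RNA in Cy5 and 0.69, 0.71 and 0.59 with it in Cy3. All arrays were above 0 and the orientations overlapped slightly. The mean was 0.58 ± 0.096 (95% interval 0.47 to 0.70, limma adjusted p = 1.26e-04). Rab38, its nearest relative, was at 0.0024 ± 0.054, and Rab32 read higher than Rab38 on 6 of 6 arrays, a difference that was not tested.

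Rab20, a GTPase of maturing phagosomes, read 0.46, -0.01 and 0.36 in Cy5 and 0.64, 0.79 and 0.57 in Cy3. The Cy5 array of set 2 was at 0 and the other 5 were clearly above. Its rise was 0.47 ± 0.079 (limma adjusted p = 2.96e-04), and both of its probes were called (0.39 and 0.54). On the Cy5 arrays alone the gene was not called.

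Several smaller rises were those of genes of early and recycling endosomes and of the Golgi route. Rab21, an early endosomal GTPase, rose by 0.24 ± 0.056 (adjusted p = 0.00592) and Rab22a, its neighbour on that compartment, by 0.20 ± 0.058 (0.0142). Rab12, which sends recycling receptors to lysosomes, rose by 0.23 ± 0.013 (adjusted p = 0.00472). Its arrays ran from 0.15 to 0.32, and it was called in neither orientation alone (adjusted p = 0.069 in Cy5 and 0.0549 in Cy3). Rab5a, the master switch of early endosome fusion, was called at 0.16 ± 0.046 (adjusted p = 0.0307), while Rab5b was at 0.10 ± 0.12 and Rab5c at -0.023 ± 0.225, neither called. Rab1b, of traffic from the endoplasmic reticulum to the Golgi, was called at 0.15 ± 0.021 (adjusted p = 0.0284), with Cy5 arrays between 0.25 and 0.50 and Cy3 arrays between -0.14 and 0.03. On the Cy5 arrays alone Rab21 was at 0.18 (adjusted p = 0.120), Rab22a at 0.13 (0.200) and Rab5a at 0.089 (0.343), none of them called. In each of these genes the Cy5 arrays lay wholly below the Cy3 arrays. Calls for Rab22a, Rab5a and Rab1b depended on single sets. Rab22a was at 0.16 without set 2 (adjusted p = 0.0827). Rab5a was not called without set 1 (0.18, adjusted p = 0.0618), set 2 (0.14, 0.167) or set 3 (0.16, 0.0805). Rab1b turned to -0.044 on the Cy3 arrays alone and was not called there, nor was it called without set 1 (0.16, 0.100), set 2 (0.14, 0.142) or set 3 (0.16, 0.0608).

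The Rab genes that fell include 2 of regulated secretion. Rab27a, which brings lysosome-related and secretory granules to the plasma membrane, averaged -0.32 ± 0.032 (limma adjusted p = 0.0011) and lay between -0.43 and -0.27 on the arrays, while its relative Rab27b was at -0.034 ± 0.068. Rab3a, of synaptic and secretory vesicles, averaged -0.29 ± 0.047 (adjusted p = 0.00192). Each of these means joins a probe that fell and a probe that was not called, as given with the probe comparison. Rab4a, of fast recycling from early endosomes, fell, at -0.22 ± 0.055 (adjusted p = 0.00794), and its relative Rab4b was at 0.023 ± 0.069, with Rab4a lower on 6 of 6 arrays. Rab23, a regulator of hedgehog signalling, fell, at -0.24 ± 0.034 (adjusted p = 0.00472), with the 6 arrays between -0.29 and -0.18 and both probes called. Rab24, linked to autophagy, was at -0.19 ± 0.027 (adjusted p = 0.0127, and -0.18 with 0.0695 without set 1). Rab28, a GTPase of cilia, was at -0.16 ± 0.074 (adjusted p = 0.0357, and not called without set 2, -0.15 with 0.120, or set 3, -0.14 with 0.122).

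Other Rab GTPases with known roles in LPS-treated macrophages were near the threshold or not called. Rab7, the late endosome switch, was at 0.15 ± 0.065 (95% interval 0.038 to 0.25, adjusted p = 0.0504), and its Cy5 arrays (0.19 to 0.38) lay above its Cy3 arrays (-0.03 to 0.05). Rab10, which carries the LPS receptor to the surface, was at 0.13 ± 0.050 (adjusted p = 0.0682), and Rab11a, of recycling endosomes, at 0.13 ± 0.025 (0.0615). Rab33b, a Golgi GTPase, was at 0.16 ± 0.12 (adjusted p = 0.0781) and was called without set 3 (0.23, 0.022). Rab7-ps1, a pseudogene whose probe may also bind Rab7 RNA, was called at 0.19 ± 0.077 (adjusted p = 0.0198), but not without set 2 (0.18, 0.055) or set 3 (0.16, 0.0831). Besides it, 2 symbols that begin with Rab but name no GTPase were tested and not called, Rab5if at 0.0074 ± 0.021 and the antisense RNA gene Rab10os at -0.066 ± 0.16. Array probes of close relatives such as Rab1a and Rab1b, or Arf1 and Arf3, can bind each other's RNA.

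**Figure D3:**
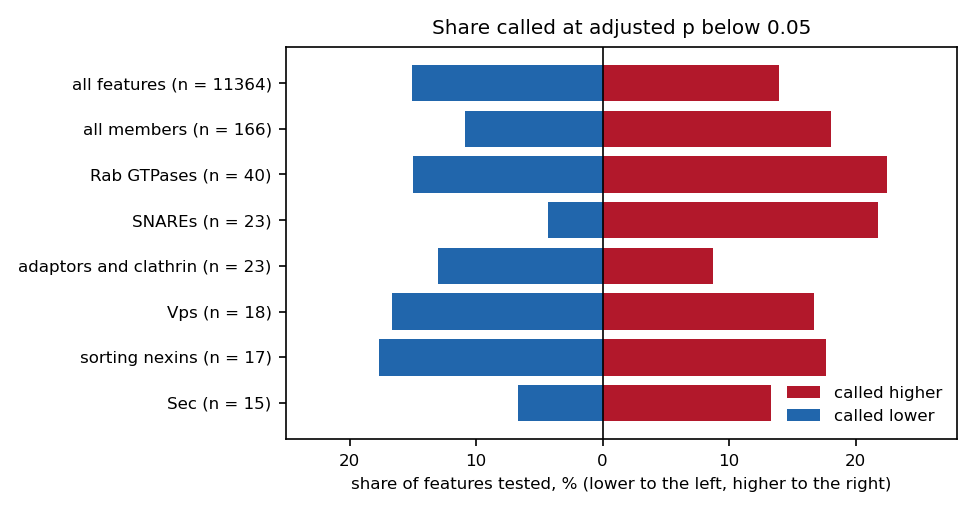
Share of features called higher (red, to the right) and lower (blue, to the left) at an adjusted p below 0.05, in percent of those tested, for all features, all genes described here and the 6 largest groups. All features stand at 14.0% higher and 15% lower, the 166 genes at 18.1% and 10.8%, and the SNARE bars stand for 5 genes higher and 1 lower of 23. In the small groups a single gene moves a bar by several percent.

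Probes of 1 gene did not always give 1 answer. Of the 166 genes, 50 had several probes measured on all arrays, whose values differed by a median of 0.049. The gene mean was called for 15 of them, and in 8 of these a probe was not called: Rab27a, Rab3a, Rab8a, Vps45, Exoc4, Vps37a, Ap3s1 and Ap1m2.

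Rab3d, a GTPase of secretory granules, was the extreme case. Its mean of 0.37 ± 0.19 (limma adjusted p = 0.0066) joined a probe at 1.28 ± 0.32 and a probe at -0.55 ± 0.056, called in opposite directions although both are annotated to the same transcript record. The first read between 0.92 and 1.81 on the 6 arrays and the second between -0.80 and -0.40. No direction can be given for Rab3d, and it is the only one of the 50 genes with opposite calls or a difference over 2-fold. The deposited table does not show which transcript each probe binds.

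Rab27a had a probe at -0.71 ± 0.097 and a probe at 0.068 ± 0.071 (limma adjusted p = 0.363). Rab3a had them at -0.62 ± 0.13 and 0.033 ± 0.042 (adjusted p = 0.653). Rab8a, a GTPase of exocytosis and membrane ruffles, rose to 0.21 ± 0.023 as a mean (adjusted p = 0.00835) of 0.50 ± 0.080 and -0.089 ± 0.036. Its Cy5 arrays lay between -0.06 and 0.15 and its Cy3 arrays between 0.28 and 0.44, without overlap. On the Cy5 arrays alone Rab8a was at 0.066 (adjusted p = 0.534), and the call also ended with the set as a fixed block (0.0668). In each of these genes 1 probe was called and the other was not. Ap4b1, a subunit of the AP-4 adaptor, had a probe called at 0.29 and a mean of 0.070 that was not called.

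**Figure D4:**
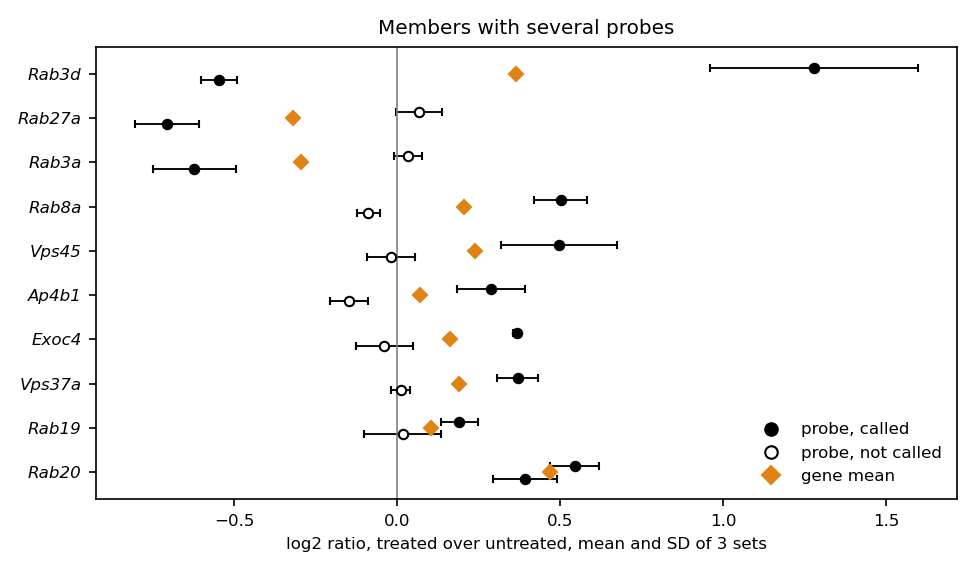
Log2 ratio of treated over untreated RNA for the single probes of the 10 genes whose probes differed most, as mean and SD of 3 sets. Filled circles are called probes, open circles probes not called, and orange diamonds the mean used for the gene. The probes of Rab3d lie at -0.55 and 1.28, on opposite sides of 0, while the probes of Rab20 lie close together at 0.39 and 0.54.

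Arf GTPases recruit coats at the Golgi and act at the plasma membrane, and Arl proteins are their relatives. Of 9 tested, 2 rose and 0 fell (22.2% called, against 29.0% of all features), with a median of 0.067. Arf4, a Golgi GTPase, rose by 0.25 ± 0.036 (limma adjusted p = 0.00378), with Cy5 arrays between 0.11 and 0.20 and Cy3 arrays between 0.29 and 0.38. Another Arf4 probe, left out because it was measured on 3 arrays, read -2.34 and -1.35 with treated RNA in Cy5 (sets 1 and 2) and 2.33 with it in Cy3 (set 2). With exact zeros kept as values, which brings that probe in, Arf4 was at 0.012 and not called (adjusted p = 1), and on the Cy5 arrays alone it was at 0.16 (0.138). Arf3 rose by 0.20 ± 0.048 (adjusted p = 0.0114, and 0.18 with 0.0613 without set 1). On the Cy3 arrays alone Arf3 was at 0.12 (0.218) and with exact zeros kept at 0.20 (0.167), not called in either fit. Arf6, which acts in LPS receptor uptake at the plasma membrane, was at 0.026 ± 0.014 (95% interval -0.070 to 0.12, adjusted p = 0.695). The Arl2 partner gene Arl2bp was at 0.10 ± 0.021 (adjusted p = 0.112), and Arl2 itself at -0.11 ± 0.11 (0.164), or -0.18 and just inside the threshold without set 3 (adjusted p = 0.049996).

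Genes of the Vps series were found as yeast mutants that missort vacuolar proteins. They numbered 18, of which 3 rose, 3 fell and 12 were not called, and their median was -0.027. The share called was 33.3%, against 29.0% of all features. The changes fell on different complexes. Vps35, the core of retromer, which retrieves receptors from endosomes, fell, at -0.23 ± 0.033 (limma adjusted p = 0.00521), with both probes called. Its Cy5 arrays (-0.35 to -0.28) lay wholly below its Cy3 arrays (-0.19 to -0.14). On the Cy3 arrays alone Vps35 was at -0.16 and not called (adjusted p = 0.103). Vps26c, a subunit of the related retriever complex, was at -0.17 ± 0.066 (adjusted p = 0.0281), and Vps29, shared by both complexes, at 0.021 ± 0.030 and not called. Vps4b, an ATPase that takes ESCRT-III filaments apart, was at -0.19 ± 0.071 (adjusted p = 0.0184), and its relative Vps4a at -0.056 ± 0.089.

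Upward calls came from 2 genes of Sec1/Munc18 proteins, which steer SNARE pairing, and 1 gene of ESCRT-I. Vps33a, of the HOPS tether of lysosomes, rose by 0.23 ± 0.066 (limma adjusted p = 0.00784). Vps45, of endosomal SNAREs, was at 0.24 ± 0.080 (adjusted p = 0.00809), the mean of a probe at 0.50 and a probe at -0.019. Vps37a was at 0.19 ± 0.023 (adjusted p = 0.0119), the mean of probes at 0.37 and 0.011, and was not called without set 1 (0.19, adjusted p = 0.0564). Vps26c was not called without set 2 (-0.16, adjusted p = 0.0909) or set 3 (-0.14, 0.0995), nor Vps4b without set 2 (-0.16, 0.0866) or set 3 (-0.18, 0.0711). With exact zeros kept, Vps4b was at -0.096 (0.0819), and on the Cy3 arrays alone at -0.086 (0.354). Its Cy5 arrays ran from -0.40 to -0.22 and its Cy3 arrays from -0.14 to -0.01. The HOPS gene Vps16 was at -0.091 ± 0.040 (adjusted p = 0.17). Vps51, of the tethers of endosome-to-Golgi and recycling traffic, was at -0.068 ± 0.12 (adjusted p = 0.417), with arrays from -1.03 to 0.63.

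Clathrin adaptors pick cargo for clathrin-coated and related vesicles. Of 23 adaptor and clathrin genes, 2 rose, 3 fell and 18 were not called, with a median of 0.042. Calls made up 21.7%, against 29.0% of all features. Ap2b1, the large β subunit of the plasma membrane adaptor AP-2, read 0.37, 0.68 and 0.56 with treated RNA in Cy5 and 0.07, 0.11 and 0.17 with it in Cy3. All arrays were above 0, but the orientations did not overlap. The mean was 0.33 ± 0.095 (limma adjusted p = 0.00232), and on the Cy3 arrays alone it was not called. Of the 3 other AP-2 genes none was called. Ap3s1, of the endosomal adaptor AP-3, was at 0.18 ± 0.041 (adjusted p = 0.0189), but not called without set 1 (0.18, 0.0654) or set 3 (0.15, 0.0666).

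Falls in this group were those of Ap4m1, Ap1m2 and Ap1s2. Ap4m1, the cargo-binding subunit of the Golgi adaptor AP-4, fell, at -0.30 ± 0.040 (limma adjusted p = 0.00174), with arrays from -0.44 to -0.07. Ap1m2, the epithelial form of an AP-1 subunit, was at -0.21 ± 0.075 (adjusted p = 0.0124), and its arrays ran from -0.70 to 0.10. Ap1m2 was not called without set 2 (-0.17, adjusted p = 0.067), nor over the 6 arrays with no block (0.121), with the set as a random block (0.0751) or as a fixed block (0.273). On the Cy5 arrays alone it was at -0.34 and on the Cy3 arrays alone at -0.083, neither called. Ap1s2 was at -0.18 ± 0.0090 (adjusted p = 0.0156), and not called without set 1 (-0.17, 0.0744) or set 2 (-0.18, 0.0561). Its arrays ran from -0.33 to -0.02, wider than that SD. Ap1s2 was called neither on the Cy5 arrays alone (-0.12, adjusted p = 0.273) nor on the Cy3 arrays alone (-0.23, 0.0593). Ap1m1, the widely expressed relative of Ap1m2, was at 0.079 ± 0.025 and not called. Other AP-1 genes near the threshold were Ap1g1 at 0.14 ± 0.074 (adjusted p = 0.056, and 0.19 with 0.0387 without set 3) and Ap1s1 at 0.13 ± 0.042 (0.0583). The clathrin light chain genes Clta and Cltb were at 0.091 ± 0.0996 and 0.045 ± 0.040, neither called.

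Coat genes of early secretory traffic changed little. COPI returns proteins from the Golgi to the endoplasmic reticulum. It had 7 genes tested and 0 called in limma's test (0 at an unadjusted p below 0.05 as well), against 29.0% of all features called. The highest were Copa at 0.097 ± 0.017 (limma adjusted p = 0.133) and Copz1 at 0.085 ± 0.022 (0.182). Among 6 genes of COPII, the outbound coat, Sec24d, a cargo-binding subunit, was called at 0.24 ± 0.14 (adjusted p = 0.0212), but the Cy5 array of set 2 was at -0.22 and the other 5 between 0.22 and 0.38. Sec24d was not called without set 1 (0.18, adjusted p = 0.0835) or set 3 (0.21, 0.109). Sec23b, another COPII gene, was at 0.15 ± 0.12 (adjusted p = 0.0934), with Cy5 arrays from -0.62 to -0.11 and Cy3 arrays from 0.65 to 0.81, the widest difference between the orientation means among the 166 genes.

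The other Sec symbols name unlike proteins, and the whole Sec group of 15 had 2 rises and 1 fall. Called genes made up 20%, against 29.0% of all features. Sec61a1, the channel of protein entry into the endoplasmic reticulum, was at 0.16 ± 0.12 (limma adjusted p = 0.0692) and was called without set 3 (0.23, 0.0221). Sec14l1, a lipid-binding protein that restrains the RNA sensor RIG-I, rose by 0.18 ± 0.014 (adjusted p = 0.0133). Its Cy5 arrays (0.23 to 0.26) lay wholly above its Cy3 arrays (0.10 to 0.13). Sec14l1 was called neither on the Cy5 arrays alone (0.25, adjusted p = 0.0515) nor on the Cy3 arrays alone (0.12, 0.187). Sec1, a fucosyltransferase gene, was called at -0.15 ± 0.043 (adjusted p = 0.0352), and not without set 1 (-0.16, 0.095), set 2 (-0.16, 0.0831) or set 3 (-0.13, 0.104). Another symbol caught by its letters, Vps72 of a chromatin complex, was at 0.032 ± 0.016 and not called.

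The exocyst tethers secretory vesicles to the plasma membrane. Of 5 genes tested, 1 rose and 1 fell (40% called, against 29.0% of all features). Exoc3l2, a relative of an exocyst subunit gene, fell, at -0.32 ± 0.091 (limma adjusted p = 0.0023), with the 6 arrays between -0.47 and -0.09. Exoc4 was called at 0.16 ± 0.038 (adjusted p = 0.0248), the mean of probes at 0.37 and -0.039, and not without set 1 (0.18, 0.0668), set 2 (0.14, 0.141) or set 3 (0.17, 0.0592). Exoc2 was at 0.036 ± 0.062 (adjusted p = 0.618) and Exoc7 at -0.021 ± 0.040 (0.765).

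ESCRT-III filaments pinch membrane away from the cytoplasm, as in multivesicular endosomes. Of 6 Chmp genes, which encode its subunits, 2 rose and 0 fell, with a median of 0.077. The share called was 33.3%, against 29.0% of all features. Chmp2b rose by 0.24 ± 0.033 (limma adjusted p = 0.00438). Its Cy5 arrays lay between 0.06 and 0.20 and its Cy3 arrays between 0.22 and 0.42, without overlap. On the Cy5 arrays alone Chmp2b was at 0.13 and not called (adjusted p = 0.213). Chmp5 was called at 0.18 ± 0.092 (adjusted p = 0.0318), but not without set 1 (0.15, 0.142) or set 2 (0.15, 0.113). Chmp5 was called neither on the Cy5 arrays alone (0.19, adjusted p = 0.163) nor on the Cy3 arrays alone (0.17, 0.101). Chmp2a was at 0.11 ± 0.051 (adjusted p = 0.109) and Chmp1b at 0.043 ± 0.076 (0.56).

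Partners of these proteins, taken from lists of regulators rather than from the symbol rule, were counted beside them. Of 163 tested, 25 rose and 18 fell (26.4% called, against 29.0% of all features), with a median of 0.0011. The share called per list ran from 13.3% to 47.4%, highest for ESCRT partners, a list that also holds endosomal lipid kinase and microtubule linker genes. ESCRT partners had 8 rises and 1 fall among 19, with a median of 0.13. Among those that rose were the deubiquitinase gene Stambpl1 at 0.39 ± 0.070 and Hook2, a microtubule linker gene, at 0.32 ± 0.060 (limma adjusted p = 6.66e-04 and 0.00139). Rab regulators had 5 rises and 3 falls among 25. Rabgef1, which activates Rab5, rose by 0.67 ± 0.043 (adjusted p = 3.00e-05) and read 0.54 or more on every array. Madd, an activator of Rab3 and Rab27, averaged -0.42 ± 0.18 (adjusted p = 0.00306).

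SNARE partners had 4 rises and 4 falls among 31. Gosr1, a Golgi SNARE, rose by 0.39 ± 0.049, and Syt11, a synaptotagmin that restrains cytokine release and phagocytosis in macrophages, fell, at -0.52 ± 0.063 (limma adjusted p = 4.83e-04 and 1.33e-04). In the list of clathrin-mediated endocytosis, 3 rose and 4 fell of 26. Ehd1, an ATPase of endosomal recycling tubules, had the largest change of all partners, 1.80 ± 0.099 (adjusted p = 4.34e-07), with every array between 1.68 and 1.94, and its relative Ehd4 rose by 0.46 ± 0.084 (3.64e-04). Arf regulators had 1 rise (Sar1a, the COPII GTPase, 0.19 ± 0.047, adjusted p = 0.0134) and 2 falls among 15, the larger being Asap1 at -0.28 ± 0.16 (0.0138). Tethers and golgins had 1 rise, of Golga3 at 0.49 ± 0.050 (adjusted p = 1.56e-04), and 3 falls among 17, with Trappc5 at -0.21 ± 0.097 (0.0177). The Trappc5 call ended without set 1 (-0.17, adjusted p = 0.0974) and the Sar1a call without set 3 (0.17, 0.0538). Cargo machinery of the endoplasmic reticulum and Golgi had 3 rises and 1 fall among 30, led by the signal recognition particle receptor gene Srpr at 0.35 ± 0.070 (adjusted p = 0.0011) and Tmed5 at 0.30 ± 0.011 (0.00124).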

How the data were processed

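The deposited table holds 1 log2 ratio per probe and array, with a median of 0 on all 6 arrays. The log base follows from the largest deposited value, which equals log2 of 100. The scanner, background correction and normalization are not given in the sources used here. Per array, 1254 to 2086 of 16281 values were exactly 0. The array platform's annotation gave 1 gene symbol for 13738 probes, several for 52 and none for 2491, and all 177 symbols of the genes described matched the RefSeq gene table of GRCm38.p6 by gene ID.

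Probes measured on all 6 arrays (13415) were averaged by gene, giving 9574 named genes and 1790 other probes. Set means were tested against 0 with limma 3.58.1 in R 4.3.3 (lmFit and eBayes, two-sided, Benjamini-Hochberg over all features). It is assumed that same-numbered arrays held the same RNA with the dyes exchanged. The number of arrays limits the precision. Genes were named by rule: the 15 largest rises and 15 largest falls called with the same sign on all arrays, up to 4 called and 2 uncalled genes per group, 18 genes picked for known roles in macrophages (1 of them, Rab7b, was not tested), and up to 2 called genes per partner list. All other called genes are named too. Clathrin, Vps and paralog genes named beside these, the subgroups by complex and the probe comparison were chosen after their values were seen. The members, lists and motifs were chosen with earlier results of these data known. Alternatives covered scaling, blocks, orientations, left-out sets, zeros, filters and single probes.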

Additional observations from a re-analysis of the deposited data

How the results depend on the processing

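Of 48 genes called, 8 were called under all 15 alternative fits that tested gene means against 0: Stx11, Snx20, Stx6, Rab32, Snx10, Snx24, Vamp4 and Rab27a. The test against a 1.5-fold change, given below, is not among the 15. Among the 15, 1 fit kept only features whose orientations agreed in sign in every set. That filter selects on the values tested, and 88.7% of the features left were called, so a call there adds little. Leaving out 1 set gave 20 to 25 genes higher and 12 to 15 lower, and 17 to 28 and 15 to 18 for the partner lists; 29 of the 48 were called without each set and 19 were not. The numbers of the arrays did not behave as pairs. Deviations of same-numbered arrays from their orientation's mean correlated at -0.48, -0.51 and -0.020. Of the 3 arrays with treated RNA in Cy5, 0 correlated best with its own number. Opposite deviations cancel in a set mean, so an SD over sets can understate the spread of the arrays. Over 6 arrays with no replicate block 31 genes were higher and 18 lower, with 45 of the 48 shared, against 36 and 19 with the set as a random replicate block and 21 and 14 with it as a fixed replicate block, where the partners' lower count was 11. Cy5 arrays alone gave 9 higher and 10 lower (partners 13 higher), and Cy3 arrays alone 10 lower (partners 6 lower). Of the 48 called genes, 18 were called on the Cy5 arrays alone and 27 on the Cy3 arrays alone. With exact zeros kept, 10 partners were lower. The test against a 1.5-fold change left 2 genes higher and 0 lower, and 1 and 0 of the partners, and an adjusted p below 0.01 left 17 and 11, with 10 partners lower. The 1.5-fold test and the lower threshold are stricter by construction, and single orientations use fewer arrays; for the other settings the cause was not tested. Calls that ended over 6 arrays with no replicate block were those of Rab1b, Ap1m2 and Exoc4. With exact zeros kept, 34 of the 48 were called. The calls that ended were those of Arf3, Arf4, Ap1m2, Chmp5, Rab3d, Rab24, Rab28, Rab7-ps1, Sec24d, Snx21, Snx31, Vps26c, Vps45 and Vps4b.

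Tested singly, 38 of 218 probes were higher and 22 lower, against 1891 and 1956 of all 13415 probes tested. Single probes opposed the mean of their gene for Rab3d (-0.55), Rab27a (0.068), Rab3a (0.033), Rab8a (-0.089), Vps45 (-0.019) and Exoc4 (-0.039). Of the called genes, Rab1b turned to -0.044 on the Cy3 arrays alone and Snx31 to -0.042 on the Cy5 arrays alone, neither called there. Among named genes that were not called, 22 changed sign under some fit without being called there. The other alternatives kept each count within 1.5 times. Without intensities, dim spots cannot be told from bright ones.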
